A study of Mus musculus with 32 samples.

Results

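The elongator methionine tRNA loci are the genes named tRNA-Met-CAT in the tables of tRNA loci, and they were taken by that name alone, leaving out the initiator genes named tRNA-iMet-CAT. They number 8 of 401 loci, namely tRNA-Met-CAT-1-1, 1-2, 2-1, 2-2, 3-1, 4-1, 5-1 and 6-1, beside 9 initiator loci. Open chromatin was profiled with ATAC-Seq, whose transposase inserts adapters into accessible DNA, on nuclei from a small piece of fresh brain or liver. All mice were on a C57BL/6N background. The paper describes its housed mice as male but reports results from both sexes, and the labels do not give the sex of each mouse. The wild-type mice carried no deletion, and the 3 knockout lines were homozygous for a CRISPR-Cas9 deletion, present in every tissue, of a single phenylalanine tRNA gene, tRNA-Phe-GAA-1-1 (Phe11), tRNA-Phe-GAA-2-1 (Phe21) or tRNA-Phe-GAA-3-1 (Phe31). No methionine tRNA gene was targeted in any line. Knockout and wild-type mice were matched by age. There were 5 wild-type, 4 Phe11, 3 Phe21 and 3 Phe31 brain libraries, and 7 wild-type, 4 Phe11, 3 Phe21 and 3 labelled Phe31 liver libraries.

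Vertebrates keep separate tRNAs for methionine, although both have the anticodon CAU and are charged by the same methionyl-tRNA synthetase. The initiator tRNA starts every protein at the start codon, whereas the elongator tRNA inserts methionine at AUG codons inside the reading frame. Each tRNA gene is transcribed by RNA polymerase III from promoter elements (the A and B boxes) that lie within the gene. In the GtRNAdb names used in the tables, the first number after the anticodon marks an isodecoder, a set of genes with the same mature sequence, and the second number marks the gene copy. Thus 1-1 and 1-2 encode the same tRNA, as do 2-1 and 2-2, while 3-1, 4-1, 5-1 and 6-1 are each the only copy of their sequence. Reads that fall wholly within identical gene bodies, with no flanking DNA, cannot be placed at a single copy. Alignments of low quality were removed, so the counts at 1-1 and 1-2, and at 2-1 and 2-2, can lack such reads. How far this alters the division within each pair was not tested.

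Depth and the libraries that stand apart are given first. Brain libraries held 20315 to 35565 reads over the 401 loci and liver libraries 4719 to 23754, so counting error was larger in liver. The deleted phenylalanine locus kept 34.0%, 7.02% and 4.82% of its wild-type mean in the brains of Phe11, Phe21 and Phe31, and 14% and 6.83% in the livers of Phe11 and Phe21, and in each of these every knockout library was the lower. In the liver libraries labelled Phe31 the tRNA-Phe-GAA-3-1 locus kept 75.4%, with overlapping libraries (p = 0.2 by a two-sided exact permutation test of 3 against 3, which cannot go below 0.1), whereas tRNA-Phe-GAA-1-1 was at 9.95%. These libraries therefore go against their label and are called "labelled Phe31" throughout. They and their 3 wild-type livers carry no sample number in the table, share no library with the other tables, and are named a, b and c. Wild-type liver replicates 1 and 22 differed by less than sampling noise (chi-square per degree of freedom 0.44, against 0.74 to 1.15 for the other pairs of numbered wild-type livers) and were counted as 1 sample in each mean ± SD. Wild-type livers a, b and c stood apart from the numbered ones, at 2.19 to 2.59 over 12 such pairs against 0.92 to 1.08 among themselves.

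In wild-type brain the order of the loci was 1-2, 1-1, 2-1, 2-2, 3-1, 4-1, 5-1 and 6-1. Levels here are reads in the window of a gene with 50 nt on each side, scaled jointly over all 32 libraries, because the tables of the tissues had been normalised separately. The copy 1-2 had 94.9 ± 1.96 (SD, n = 5) scaled reads, and 1-1 had 90.8 ± 6.93. Their libraries overlapped, so these copies of the same tRNA were not separated in brain. The copy 2-1 followed at 51.4 ± 4.02 and its partner 2-2 at 27.4 ± 3.45, with no overlap between them. The single-copy loci 3-1, at 14.5 ± 4.09, and 4-1, at 11.1 ± 3.07, overlapped each other. At the bottom, 5-1 had 0.867 ± 0.56 and 6-1 had no read in any wild-type brain.

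In wild-type liver 1-1 stood alone at the top. It had 196.8 ± 8.67 scaled reads (SD, n = 6), and its lowest library, at 189.6, lay above the highest library of 1-2, at 98.0. These values pool the numbered livers with a, b and c, and over the numbered livers alone 1-1 had 201.4 ± 10.8 and 1-2 had 79.8 ± 10.0 (SD, n = 3). The copy 1-2 had 78.2 ± 13.5 and did not overlap 2-1, at 29.5 ± 4.38. Next came 2-1, 2-2 (25.5 ± 3.62) and 3-1 (20.0 ± 3.34), of which 2-1 overlapped 2-2 and 2-2 overlapped 3-1, while 3-1 did not overlap 4-1. The loci 4-1, 5-1 and 6-1 had 4.13 ± 1.17, 2.28 ± 2.05 and 2.03 ± 1.33, and they also overlapped. With replicates 1 and 22 taken separately, 4-1 ran from 0 to 11.2 over 7 libraries (SD 3.44). The division of elongator reads therefore differed between the tissues. Of all reads at the 8 loci, 1-1 held 31.2% ± 1.46 (SD, n = 5) in wild-type brain and 55.0% ± 2.58 (SD, n = 6) in wild-type liver, whereas 1-2 held 32.7% ± 1.45 and 21.7% ± 2.94, and 2-1 held 17.7% ± 1.39 and 8.21% ± 0.94. The 8 loci together held 1.94% ± 0.11 of the tRNA reads in brain and 2.41% ± 0.11 in liver.

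**Figure D1:**
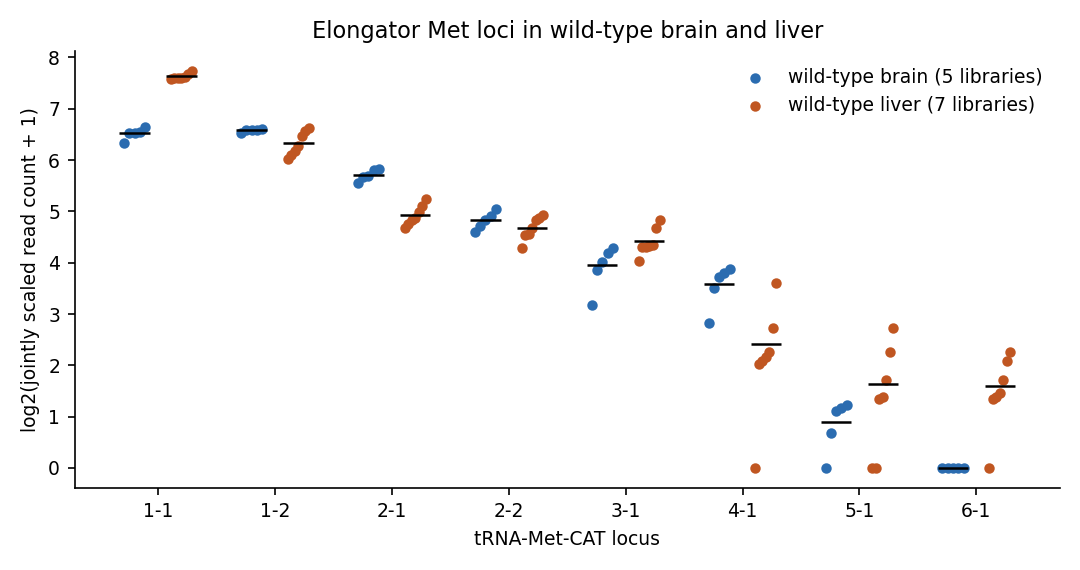
Level of each elongator methionine locus in wild-type brain (blue, 5 libraries) and liver (orange, 7 libraries, replicates 1 and 22 drawn separately), as log2 of the jointly scaled read count plus 1, with 1 point per library and a black line at the log2 of the group mean plus 1. Only at 1-1 did liver lie wholly above brain, and only at 2-1 wholly below it, among the loci 1-1 to 3-1.

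The tissue comparison asked which of these differences exceeded the spread between libraries. It was fitted with limma on log2(scaled reads + 1), with batch as a term for wild type and Phe11, across all loci with a mean of at least 10. For each fit the reads were scaled over its own libraries alone, so the values beside the tests differ from the levels above. Benjamini-Hochberg adjusted p-values under 0.05 were called. At 1-1 the 5 wild-type brains had 76.6, 85.7, 86.0, 86.9 and 93.1 scaled reads, and the 4 numbered wild-type livers had 191.1, 201.2, 203.8 and 208.0. All brains were below all livers, as at 27.7% of all loci tested. In the fit brain had 42.7% of the liver level, a log2 difference of -1.23 ± 0.07 (SE, 95% interval -1.39 to -1.07, adjusted p = 1.33e-09 by limma). At 1-2, which encodes the same tRNA, the brains had 87.5, 89.5, 89.6, 90.2 and 91.2 scaled reads and the livers 71.2, 74.8, 87.5 and 98.2. The groups overlapped, and the log2 difference of 0.13 ± 0.10 (95% interval -0.08 to 0.34) was not called (adjusted p = 0.261 by limma). The intervals of the copies 1-1 and 1-2 do not meet.

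The copy 2-1 went the opposite way. It had 43.7, 46.6, 47.2, 51.8 and 53.4 scaled reads in the brains and 24.4, 28.7, 29.9 and 33.4 in the livers, so every brain was above every liver, as at 35.3% of all loci tested. The log2 difference was 0.73 ± 0.14 (95% interval 0.44 to 1.02, adjusted p = 0.000227 by limma). Its partner 2-2 did not pass the test (0.15 ± 0.18, 95% interval -0.22 to 0.53, adjusted p = 0.444 by limma), nor did 3-1 (-0.55 ± 0.28, adjusted p = 0.089 by limma). Of 5 loci tested in wild type, 1 was higher in brain, 1 lower and 3 not called. Over all loci 72.7% of 238 passed this test, 40.8% higher and 31.9% lower, so a call between the tissues was the usual outcome for a tRNA locus. The median log2 difference was 0.13 over the 5 loci and 0.11 over all loci tested. In tissue of mixed cells, fewer cells with an open locus cannot be told apart from less open chromatin per cell.

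The Phe11 and the Phe21 mice, which share no library with wild type or with each other, gave separate measurements of the tissue difference. At 1-1 the log2 difference between brain and liver was -0.97 ± 0.11 in Phe11 (adjusted p = 2.75e-07 by limma) and -1.22 ± 0.10 in Phe21 (adjusted p = 9.8e-16 by limma), and in both lines every brain was below every liver, as at 30.2% and 30.6% of all loci tested. At 2-1 it was 0.46 ± 0.14 in Phe11 (adjusted p = 0.0081 by limma), where the lowest brain, at 52.8, lay just under the highest liver, at 53.6, although scaled over all 32 libraries the groups did not overlap, and 0.83 ± 0.18 in Phe21, where they did not, as at 34% of all loci in that direction (adjusted p = 8.18e-05 by limma). At 1-2 it was 0.04 ± 0.11 in Phe11 and 0.11 ± 0.10 in Phe21, and neither was called. The locus 3-1 was called lower in brain in Phe11 (-0.87 ± 0.19, adjusted p = 0.000521 by limma) and not in Phe21 (-0.32 ± 0.34, adjusted p = 0.417 by limma). Thus 3 of 6 loci tested were called in Phe11 and 2 of 5 in Phe21, against 66.3% and 61.7% of all loci. Within batch 1 of Phe11 only 1-1 of these 3 was called, with 2-1 at 0.54 (adjusted p = 0.117 by limma) and 3-1 at -0.79 (adjusted p = 0.0657 by limma).

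The ratio of reads at 1-1 to reads at 1-2 compares copies of the same mature tRNA within a library and does not depend on scaling. It ranged from 0.84 to 1.04 over the 5 wild-type brains and from 1.93 to 3.06 over the 7 wild-type livers. Over all genotypes it ranged from 0.704 to 1.24 in the 15 brains and from 1.23 to 3.06 in the 17 livers. The highest brain, Phe11 replicate 6, and the lowest liver, labelled Phe31 c, met at this border. Among the livers, the ratio was 1.25 to 2.36 in Phe11, 1.76 to 2.64 in Phe21 and 1.23 to 1.81 in the libraries labelled Phe31. The ratio of 2-1 to 2-2 was 1.90 ± 0.27 (SD, n = 5) in wild-type brain and 1.19 ± 0.31 (SD, n = 6) in wild-type liver, where a library held 12 to 23 reads at 2-1 and 8 to 18 at 2-2.

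**Figure D2:**
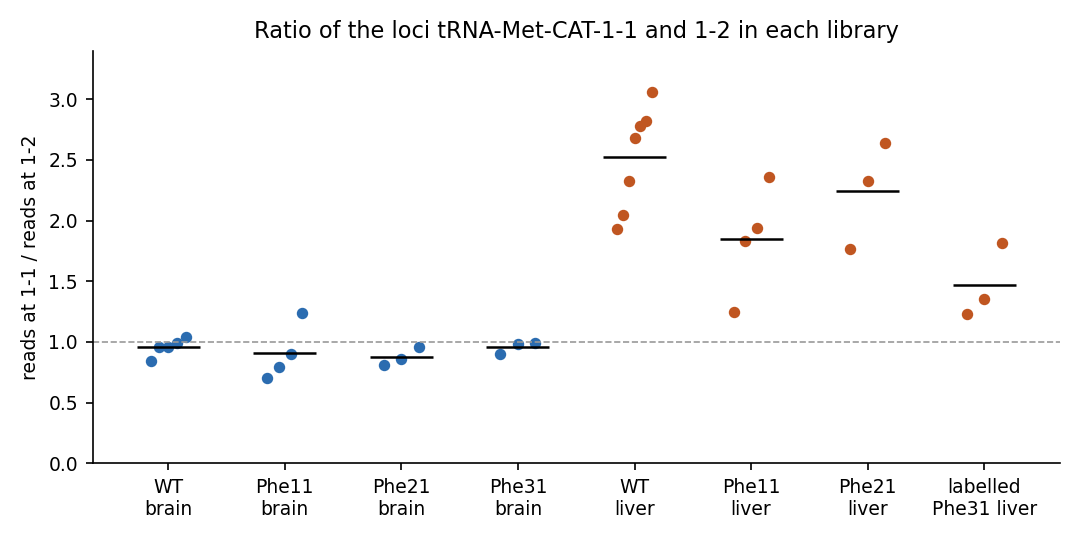
Ratio of recovered reads at tRNA-Met-CAT-1-1 to those at 1-2 in each of the 32 libraries, by tissue and genotype, with the group mean as a black line and equality as a dashed line. Brains lie between 0.704 and 1.24, and livers between 1.23 and 3.06.

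The next question was whether loss of a phenylalanine tRNA gene altered the methionine loci. The comparison was made inside each table of normalised counts, with batch as a term for Phe11. In liver, 1-1 was the one elongator locus tested that was called, and it fell. In the Phe11 table it had normalised counts of 131.3, 135.2, 140.2 and 142.9 in the wild-type livers and 85.0, 100.8, 103.2 and 113.8 in the Phe11 livers. Every Phe11 liver was below every wild-type liver, as at 7.73% of all loci tested. The means were 137.3 ± 5.83 (SD, n = 3) and 100.7 ± 11.9 (SD, n = 4), on 453 and 570 reads. The log2 change was -0.45 ± 0.11 (SE, 95% interval -0.66 to -0.24, adjusted p = 0.000985 by limma), to 73.1% of wild type. It was also called by edgeR and DESeq2 on recovered reads (-0.45 and -0.44, adjusted p = 0.000548 and 0.0341) but not in limma without the trend of variance with mean (adjusted p = 0.0799). Within batch 1 the change was -0.41 and within batch 2 it was -0.49, each not called with 2 libraries a group (adjusted p = 0.206 and 0.15 by limma). Wild-type replicates 1 and 22, counted as 1 sample in the means, lie in batches 1 and 2. The batch estimates are therefore not separate measurements, and both replicates entered the fit over all libraries.

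The other copy of this tRNA was not called in the same libraries. At 1-2 the wild-type livers had normalised counts of 48.9, 51.4, 60.2 and 66.0 and the Phe11 livers 48.3, 53.1, 55.1 and 68.2, which overlapped throughout (log2 change -0.01 ± 0.15, 95% interval -0.30 to 0.28). At 2-1, 2-2 and 3-1 the Phe11 values were 0.30 ± 0.21, 0.29 ± 0.23 and 0.38 ± 0.25 above wild type on the log2 scale, with overlapping libraries and adjusted p-values from 0.387 to 0.506 by limma. Of the 5 loci tested, 1 was lower and 4 were not called, where 6.76% of all 207 loci were called lower and 5.31% higher. The median log2 change was 0.29 over the 5 loci and 0.06 over all loci.

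In the liver table labelled Phe31, 1-1 was lower as well. Wild-type livers a, b and c had normalised counts of 85.7, 86.0 and 83.5, and the libraries labelled Phe31 had 55.2, 57.7 and 42.3. All 3 lay below all wild-type livers, as at 16.9% of all loci tested. The means were 85.1 ± 1.36 and 51.7 ± 8.27 (SD, n = 3 each), on 332 and 123 reads. The log2 change was -0.72 ± 0.14 (95% interval -1.0 to -0.44, adjusted p = 2.75e-05 by limma), to 60.8% of wild type, and 1-1 ranked 3 of 178 loci by p-value. Without the trend of variance with mean the adjusted p was 0.064 by limma, while edgeR and DESeq2 called it (adjusted p = 0.000177 and 0.0233). The copy 1-2 had 28, 30.5 and 43.2 in wild type and 30.4, 42.6 and 34.4 in the libraries labelled Phe31 (0.09 ± 0.20, adjusted p = 0.851 by limma), and 2-1 had -0.08 ± 0.31. Of 3 loci tested 1 was lower, where 8.99% of all loci were called lower and 1.69% higher. The locus 2-2, under the mean count needed for testing, had 9.91 to 13.3 in wild type and 6.76 to 9.62 in the libraries labelled Phe31, without overlap. The sum over the 8 loci was 156.8 ± 7.28 in wild type and 122.0 ± 11.1 in the libraries labelled Phe31 (SD, n = 3 each).

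In Phe21 liver no elongator locus was called. At 1-1 the wild-type livers, 3 of those in the Phe11 table, had normalised counts of 142.8, 152.7 and 158.4, and the Phe21 livers had 128.8, 152.3 and 170.6. The knockout libraries spanned the wild-type range (log2 change -0.02 ± 0.11, 95% interval -0.23 to 0.20, adjusted p = 0.901 by limma). The changes at 1-2, 2-1, 2-2 and 3-1 lay between -0.11 and 0.21, and 0 of 5 loci were called, where 13.4% of all loci were. At an unadjusted p under 0.05, 0 of the 5 passed, against 27.4% of all loci, and edgeR and DESeq2 also called 0 of the 5, where they called 34 and 13 of 201 loci. The tRNA-Phe-GAA-1-1 locus, low in the Phe11 livers and in the livers labelled Phe31, is the gene deleted in the Phe11 line. Whether the change at 1-1 differed between the lines was not tested.

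**Figure D3:**
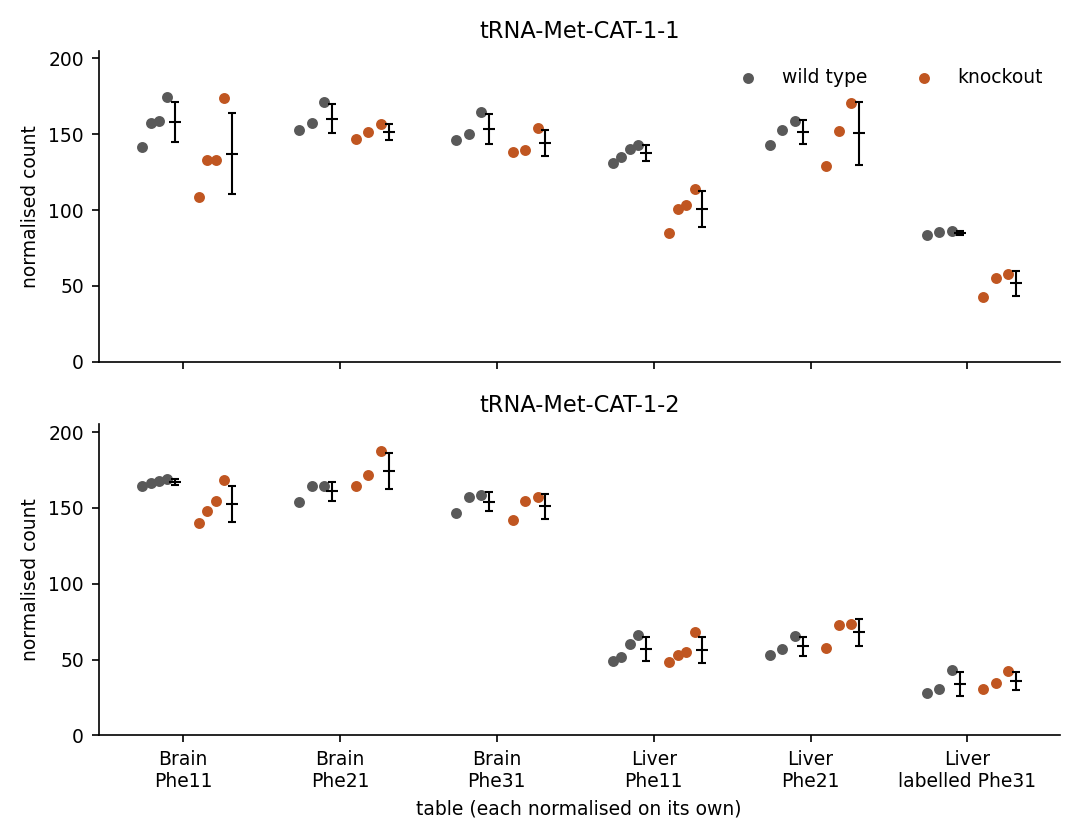
Normalised counts of tRNA-Met-CAT-1-1 (top) and 1-2 (bottom) in the libraries of each of the 6 tables, with wild type in grey, knockout in orange and the mean ± SD of the points drawn as a black bar beside them (Phe11 liver with replicates 1 and 22 separate). Values are comparable within a table only. At 1-1 the knockout libraries lie below wild type in Phe11 liver (85.0 to 113.8 against 131.3 to 142.9) and in labelled Phe31 liver (42.3 to 57.7 against 83.5 to 86.0), and at 1-2 the groups overlap in every table.

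In brain none of the 6 elongator loci tested was called in any line, where 28.1% of all loci were called for Phe11, 0% for Phe21 and 0.775% for Phe31. In Phe11 brain the count at 1-1 was 141.9, 157.5, 158.5 and 174.5 in wild type and 108.8, 133.0, 133.2 and 173.6 in the knockout. Phe11 replicate 6 lay within the wild-type range and the other 3 lay below it. The log2 change was -0.22 ± 0.09 (95% interval -0.40 to -0.04) with an adjusted p of 0.0601 by limma, on the far side of the threshold, and without replicate 6 it was -0.31 with an adjusted p of 0.0194. The copy 1-2 had a log2 change of -0.13 ± 0.07, and 2-1, 2-2 and 3-1 lay between -0.13 and -0.02. For 1-1 the difference between the brain and the liver effect of Phe11 was 0.26 ± 0.15 on the log2 scale (interaction term, adjusted p = 0.301 by limma), so the tissues were not shown to differ. No locus of 6 had a called interaction for Phe11, nor of 5 for Phe21, where 9.31% and 5.42% of all loci did. At an unadjusted p under 0.05 no elongator locus passed either interaction, where 22.3% and 20.4% of all loci did, and edgeR, the one other tool run on it, called none, where it called 28 and 24 of all loci.

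The single-copy locus 4-1 had the largest estimates in brain, on few reads. In Phe21 brain it had normalised counts of 17.7, 22.4 and 23.1 in wild type and 6.34, 11 and 13.3 in the knockout, so every knockout library was below every wild-type library. The means were 21.1 ± 2.91 and 10.2 ± 3.56 (SD, n = 3 each), on 59 and 34 reads. The log2 change of -1.02 ± 0.33 did not pass after adjustment (adjusted p = 0.122, unadjusted p = 0.00822 by limma), and 10.3% of all loci in this table were lower without overlap. In Phe11 brain 4-1 had 10.7, 17.9, 20.8 and 22.9 in wild type and 16.5, 22.6, 30.7 and 31.4 in the knockout, which overlapped (0.47 ± 0.24, adjusted p = 0.135 by limma, and 0.71 with an adjusted p of 0.0321 without replicate 5). In Phe31 brain it differed by -0.11 ± 0.29. The estimates for 4-1 thus had opposite signs in the Phe11 and Phe21 brain tables, and neither was called.

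**Figure D4:**
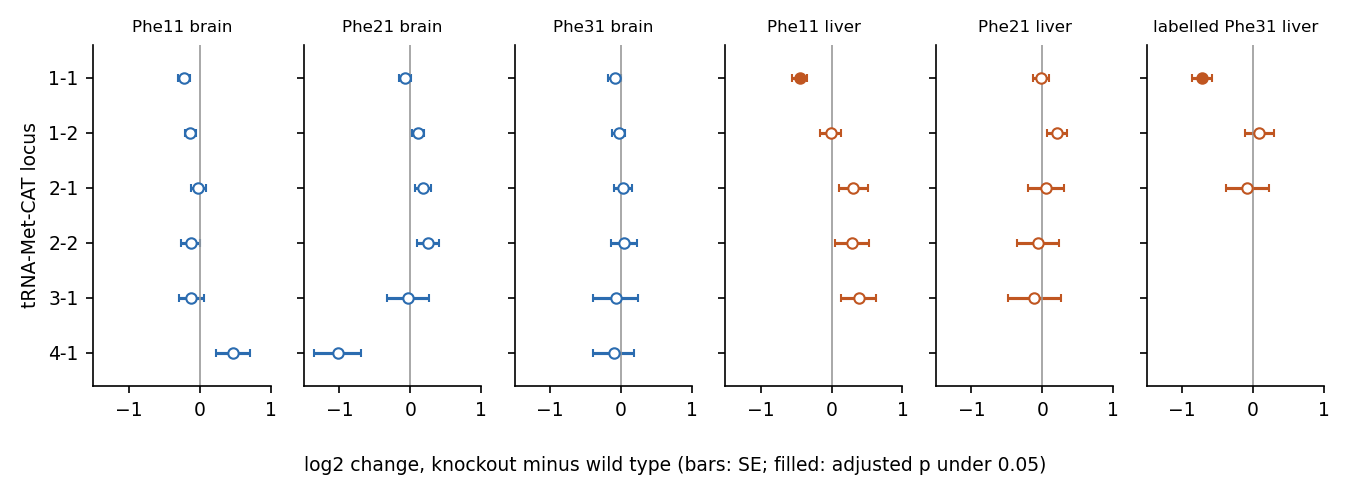
Log2 change (knockout minus wild type, limma) of each elongator methionine locus tested, with SE bars, in the 6 comparisons (blue, brain, and orange, liver). Filled points mark an adjusted p under 0.05, which are 1-1 in Phe11 liver (-0.45) and in labelled Phe31 liver (-0.72), and loci without a point had a mean normalised count under 10.

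In Phe21 and Phe31 brain the other loci were not called either. In Phe21 brain the log2 changes were -0.08 ± 0.08 at 1-1, 0.11 ± 0.08 at 1-2, 0.18 ± 0.11 at 2-1, 0.25 ± 0.16 at 2-2 and -0.03 ± 0.30 at 3-1. In Phe31 brain they lay between -0.09 and 0.04, with a 95% interval of -0.29 to 0.11 at 1-1 and adjusted p-values from 0.933 to 0.986 by limma. At an unadjusted p under 0.05, 1 elongator locus passed in Phe11 brain (1-1), 1 in Phe21 brain (4-1) and 0 in Phe31 brain, against 43.3%, 17% and 6.2% of all loci, so the share of elongator loci was no higher than that of all loci. In these brain comparisons edgeR and DESeq2 called 0 elongator loci. Over all loci the alternative fits, these tools among them, called 6 to 75 in Phe11 brain, 0 to 9 in Phe21 brain and 1 to 2 in Phe31 brain. In Phe21 and Phe31 brain a count of 0 is therefore near the share of all loci. Precision differed by locus, and the interval at 3-1 in Phe31 brain ran from -0.75 to 0.60.

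The loci 5-1 and 6-1 never reached the mean count for a test. Over the 15 brains 5-1 had 21 reads in all and 6-1 had 6, and over the 17 livers they had 23 and 22. The locus 6-1 was at 0 in 10 of 15 brains and in 4 of 17 livers, although livers were read less deeply. In liver 4-1 had 78 reads in all, of which 46 came from the 4 Phe11 livers, where its normalised count was 8.0 ± 1.59 against 2.82 ± 0.91 (SD, n = 3) in wild type, with overlapping libraries. It was under the filter there, and in the fit without a filter its log2 change was 1.51 ± 0.47 (adjusted p = 0.0356 by limma). In the same kind of fit the tissue difference in wild type was 1.40 ± 0.48 at 4-1, higher in brain (adjusted p = 0.0214 by limma). The numbered wild-type livers had 11.1, 0, 2.99 and 3.75 scaled reads at 4-1 and the brains 5.81 to 13.1, with overlap. Both estimates for 4-1 rest on the few reads of these livers. Over all loci, the fits without a filter called 28 in Phe11 liver and 214 in the wild-type tissue comparison. The locus 6-1 was also called there, but it had 0 reads in the 5 wild-type brains and 1 or 2 in each numbered wild-type liver, all at or under a floor of 3 reads per library, so no fold is given and nothing rests on that call. The same holds for 5-1 in Phe11, called lower in brain without a filter, which had 0 or 1 read in each brain and 1 to 3 in each liver.

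Summed over the 8 loci, elongator accessibility in the knockouts was 93.2% of wild type for the brains of Phe11, 103% for those of Phe21 and 97.3% for those of Phe31. For the livers it was 93.3% (Phe11), 102% (Phe21) and 77.8% (labelled Phe31). Only in the last did the libraries not overlap. The 9 initiator loci gave 89.7%, 101%, 100.5%, 107%, 116% and 115% in the same order, without overlap in Phe11 brain (lower), Phe21 liver (higher) and labelled Phe31 liver (higher). The initiator sum was thus not lower in the liver tables in which 1-1 fell. Of the initiator loci tested, 1 of 7 was called higher and 1 lower in Phe11 brain, and none of 5 or 6 in the other knockout comparisons.

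The position of these genes can be given as a class only, because no file used here pairs the GtRNAdb names with coordinates. RefSeq annotates 16 tRNA genes with a CAT anticodon for methionine on GRCm38.p6, the build of the peak files, of which 7 have the 73 nt of an elongator gene and 9 the 72 nt of an initiator gene. Of the 7, 4 lie on chromosome 13, where n-TMcat14 (chr13:21167604-21167676) and n-TMcat15 (chr13:21169687-21169759) are in a cluster near Trim27 with 8 other tRNA genes within 10000 nt of each. The others there are n-TMcat13 (chr13:21326717-21326789), near Gpx6, and n-TMcat12 (chr13:23317466-23317538). On chromosome 15 are n-TMcat16 (chr15:57975983-57976055), near Tbc1d31, and n-TMcat4 (chr15:88641532-88641604), and on chromosome 8 is n-TMcat17 (chr8:121579229-121579301), 365 nt from Fbxo31. None overlaps a protein-coding gene. A consensus peak of open chromatin overlapped 6 of these 7 genes in the 3 brain peak sets and in that of Phe11 liver, and 5 of 7 in the sets of Phe21 and labelled Phe31 liver. Several of these peaks also covered other genes, as at n-TMcat17, whose peaks of 1522 to 4107 nt included part of Fbxo31, and at n-TMcat15, whose peaks included n-TLaag7 and n-TLaag5, and the part of such neighbours in the overlap was not tested. Over all 430 RefSeq tRNA genes the share with a peak was 52.8% to 56.5% in brain and 40.9% to 50.2% in liver. No peak overlapped n-TMcat4 in any set, and n-TMcat12 lacked one in the same 2 liver sets.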

How the data were processed

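Reads of ATAC-Seq libraries were trimmed, aligned to GRCm38.p6 (Bowtie2 2.4.1), stripped of PCR duplicates (Picard 2.23.8) and filtered for an alignment quality of at least 30 by the authors, who kept fragments of at most 175 nt as nucleosome-free. The deposited signal at each of 401 high-confidence tRNA genes is a read count (featureCounts 2.0.0, gene with 50 nt on each side) that the authors divided by a DESeq2 size factor per library within each of 6 tables, so values are comparable within a table only. Alignments of low quality were removed, which can lower the counts of near-identical gene copies. The deposited tables of the authors' own comparisons, with log2 fold changes and p-values, were not used, and of the consensus peaks the positions alone were used.

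Whole reads were recovered from the steps between values (100% of values within 0.01 of a whole read). Depth over the 401 loci was 20315 to 35565 reads per brain library and 4719 to 23754 per liver library. Each knockout was compared with wild type by limma 3.58.1 (R 4.3.3, with trend, two-sided) on log2(value + 1) over loci with a mean of at least 10, with batch as a term for Phe11, and p-values were adjusted by Benjamini-Hochberg over all loci tested. Tissue and interaction fits used recovered reads scaled by median-of-ratios over the libraries of each fit, and levels across tissues were scaled over all 32. edgeR 4.0.16 and DESeq2 1.42.0 on recovered reads were alternatives. The fits were also run on simulated counts with a common spread for all loci and no batch effect, and no result here rests on that. The loci named are all those of the name rule, and both they and the lists beside them were chosen with earlier results of these data known. The labels do not say that libraries of a group are from unrelated animals, so p-values measure the spread between these libraries. Wild-type liver replicates 1 and 22 were counted as 1 sample in means, SDs and percentages of wild-type means, and entered the fits separately.

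For equal sample numbers in brain and liver, deviations from the group means correlated at 0.116, 0.121 and 0.132 over 250 loci in Phe21. The correlations were -0.011 and -0.022 in wild type and 0.018 in Phe11. Differently numbered libraries reached 0.175 (Phe11 brain 14 with liver 21). Whether equal numbers mark the same mouse is therefore not settled by these values. The Phe21 liver table includes wild-type replicate 24 of batch 2, although its fit had been set up for 1 batch, and no batch term was added because batch 2 holds no Phe21 liver. No file used here gives coordinates or sequences under the GtRNAdb names, so sequences are not given here.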

Additional observations from a re-analysis of the deposited data

Results flagged for a closer look

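The locus tRNA-Met-CAT-6-1 lay on opposite sides of wild type in the tissues of the Phe21 line. It was under the filter of the main fits. In the fit without a filter the difference between the tissues was not called (interaction term, adjusted p = 0.202 by limma). Its mean normalised count in Phe21 brain was 0.904, from 1 read in each of 3 libraries, against 0 in the wild-type brains. In Phe21 liver it was 0.550, from 1 read in each of 2 libraries and none in the third, against 1.71 in the wild-type livers, which had 1, 1 and 2 reads. All of these counts are at or under a floor of 3 reads per library. None of 44 sets of 4 or more libraries examined held a library far from the others.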

How the results depend on the processing

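Counts of called elongator loci stayed within 1.5 times of their value in 183 of 195 alternative fits. In Phe11 brain the count rose from 0 to 1 with a filter at a mean of 30 and ranged from 0 to 1 with 1 library left out. The call was 1-1 without wild-type replicate 3, Phe11 replicate 6 or Phe11 replicate 13 (adjusted p = 0.0475, 0.0194 and 0.0293 by limma) and 4-1 without Phe11 replicate 5. In Phe11 liver it went from 1 to 0 in batch 1 alone, in batch 2 alone and in limma without trend, and to 2 with no filter, where 4-1 was added. In labelled Phe31 liver it went from 1 to 0 in limma without trend. For wild-type brain against liver it went from 2 to 4 with no filter, adding 4-1 and 6-1, and 3-1 was called without wild-type liver replicate 24 (-0.70, adjusted p = 0.0347 by limma) or with the unnumbered livers added (-0.54, adjusted p = 0.0457). For Phe11 brain against liver it went from 3 to 1 in batch 1 alone. Batches alone hold fewer libraries, and otherwise the cause was not tested. No called value changed sign. Of 1016 alternative values of single loci, 8 gained a call, 6 lost one and 1 uncalled value moved past its error.

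The log2 change of 1-1 ranged from -0.49 to -0.41 over 13 alternatives in Phe11 liver (-0.53 to -0.36 with 1 library left out) and from -0.81 to -0.63 over 9 in labelled Phe31 liver (-0.80 to -0.58). Its wild-type tissue difference ranged from -1.29 to -1.15 and was called in all 15 alternatives, including the average of wild-type livers 1 and 22, added after seeing the data. With the replicate block the Phe21 tissue comparison called 2 elongator loci, 1-1 and 2-1, as did the fit without it. The latter called 61.7% of all 235 loci. Wild-type numbers were not shown to pair the samples, and with the block 2 elongator loci and 106 of all loci were called, against 173.

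Over all loci, without fits that left out 1 library, the calls ranged from 6 (batch 1 alone) to 75 in Phe11 brain against 74, from 0 to 9 in Phe21 brain against 0, from 1 to 2 in Phe31 brain against 2, from 5 (batch 2 alone) to 28 in Phe11 liver against 25, from 8 (limma without trend) to 43 in Phe21 liver against 27, from 1 (limma without trend) to 22 in labelled Phe31 liver against 19, and from 93 (batch 1 alone) to 202 in Phe11 brain against liver against 171. The interactions gave 21 to 28 against 23 and 11 to 24 against 13. With 1 library left out, the counts that moved by over 1.5 times were those without Phe21 brain replicate 7 (9) or wild-type brain replicate 2 (1) in Phe21 brain, without each library except Phe31 replicate 12 in Phe31 brain (1 each), without Phe11 replicate 6 in Phe11 liver (14), without wild-type a, b or c (7, 6 and 5) or b labelled Phe31 (11) in labelled Phe31 liver, and, for the Phe11 interaction, without wild-type brain replicate 1 or 16 (15 and 13), Phe11 brain replicate 5 or 6 (12 and 15) or wild-type liver replicate 22 (14). Scaling moved the split of higher and lower calls from 39 and 35 to 48 and 27 in Phe11 brain with equal library totals, from 17 and 10 to 28 and 9 with TMM or 14 and 13 with equal totals in Phe21 liver, and from 3 and 16 to 1 and 21 with TMM in labelled Phe31 liver. Counts were low at 5-1, 6-1 and, in liver, at 4-1.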
